A study of Mus musculus with 4 samples.

Results

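Deptor nuclei, labelled as layer 5 intratelencephalic excitatory neurons, are a population of the mouse cerebral cortex that was picked from single-nucleus RNA sequencing by their own counts. A nucleus was a member when it held at least 1 unique molecular identifier (UMI, 1 counted RNA molecule) of Slc17a7, no UMI of Gad1 or Gad2, at least 1 of Deptor, at least 3 of Il1rapl2, at least 1 of Scube1, Vav3 and Hgf together and at most 2 of Foxp2. This rule took 1017 of the 10968 excitatory nuclei (9.27%) and of the 35694 nuclei in all (2.85%). The excitatory nuclei that did not meet it, 9951 in number, are called other excitatory nuclei here.

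The study compared male mice whose single copy of the creatine transporter gene Slc6a8, on the X chromosome, lacked exons 5 to 7 (labelled CrT-KO, genotype CrT-/y) with wild-type littermates (labelled Control), all on the C57Bl/6J background, untreated and at postnatal day 100. The deletion was carried by every cell of the animal. There were 2 libraries of each genotype, each from the right cortex of 1 mouse, so each comparison rests on 2 animals against 2. Nuclei were sorted by flow cytometry and their RNA was counted in droplets.

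Intratelencephalic neurons send their axons to other cortical areas and to the striatum, across the corpus callosum included, whereas the extratelencephalic neurons of layer 5 reach the brainstem and spinal cord. Deptor encodes a protein that binds the kinase mTOR in both of its complexes and lowers their activity, Il1rapl2 a synaptic adhesion protein of the interleukin-1 receptor family, and Hgf the ligand of the receptor tyrosine kinase MET. Creatine and its phosphorylated form buffer ATP in neurons, and Slc6a8 is the carrier that brings creatine into the cell.

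The 4 libraries held 213 and 254 Deptor nuclei (Control replicates 1 and 2) and 317 and 233 (CrT-KO replicates 1 and 2), with 11336807 UMIs between them. Their median depth was 10650, 10296.5, 10711 and 9354 UMIs in that order, above the 7697 to 9135 UMIs of other excitatory nuclei in every library. The rule asks for UMIs of several genes and so favours deeper nuclei. Whole libraries held 51507483 to 65240843 UMIs. Scrublet marked 46 Deptor nuclei as doublets (4.52%), against 3.40% of all nuclei, and they stayed in unless stated. Pairs of libraries shared 12 to 19 barcodes, none of them on a Deptor nucleus.

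The genes of the rule describe how the members were chosen and were not tested as results. Deptor itself stood near its threshold, with 363 members at 1 UMI and 654 at 2 or more, and 968 further nuclei met all other conditions with 0 UMIs of Deptor. Members at 1 UMI of Deptor numbered 75 of 213 and 80 of 254 in the Control libraries. In the CrT-KO libraries they numbered 118 of 317 and 90 of 233. Il1rapl2 was far from its threshold in most members, with a median of 24 UMIs, 41 members at 3 UMIs and 55 nuclei just outside at 2. Those at 3 UMIs numbered 4 and 10 in the Control and 19 and 8 in the CrT-KO libraries. Whether membership at these edges differed between genotypes was not tested. For Foxp2, 52 members had 2 UMIs and 22 nuclei were just outside with 3. Of the last 3 genes, 153 members had 1 UMI in all and 181 nuclei were just outside with none. Scube1 with Vav3 was the most frequent combination (39.6% of members), followed by Scube1 alone (35.2%), Vav3 alone (8.26%) and all of them (8.06%), and Hgf alone was carried by 1.97%.

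The label was checked on marker genes outside the rule, as levels in CPM, the UMIs of a gene scaled to the same total over all UMIs of a population in a library. Of the layer 5 intratelencephalic markers outside the rule, 7 of 10 had a higher mean in Deptor nuclei than in other excitatory nuclei. Among the 7, Batf3 and Col27a1 had only 20 and 27 UMIs in Deptor nuclei, and Whrn is also on the layer 4 list. Etv1, a transcription factor of layer 5, stood at 85.4 to 105 CPM in Deptor nuclei of the 4 libraries, against 33.2 to 39.5 CPM in other excitatory nuclei. Sulf2, an enzyme that trims sulfate from heparan sulfate, stood at 128 to 155 CPM against 45.1 to 55.6 CPM. Hsd11b1, which activates glucocorticoids, stood at 9.63 to 20.9 CPM against 2.36 to 3.86 CPM. For these 3 genes the populations did not overlap in any library. Parm1 and Tox2 were not higher in Deptor nuclei, and Cpne7 was at 0 in both populations.

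Markers of other layers mostly had a lower mean in Deptor nuclei, some of them by little. All 7 markers of layer 2/3, all 9 of extratelencephalic layer 5 and all 5 of layer 6 corticothalamic neurons outside the rule had a lower mean in Deptor nuclei. The rule caps Foxp2, itself a corticothalamic marker, and leaves nuclei rich in it to the other excitatory nuclei. The corticothalamic markers are therefore no independent check of the label. None of 6 markers of layer 5/6 near-projecting neurons and none of 6 of layer 6b had a higher mean. Of 7 layer 6 intratelencephalic markers, 1 had a higher mean. The layer 2/3 genes Cux2 and Otof stood at 38.3 to 59.4 and 1.67 to 4.57 CPM in Deptor nuclei, against 155 to 192 and 12.8 to 21.3 CPM in other excitatory nuclei. The corticothalamic gene Syt6 stood at 0.834 to 2.48 CPM against 28.3 to 36.1 CPM. Hs3st4, on the same list, stayed abundant, with a mean of 871 against 1351 CPM, and was seen in 87.8% of members. The means were close for the near-projecting markers Tshz2 (269 against 283 CPM) and Vwc2l (76.9 against 81.5 CPM). They were also close for the layer 6 intratelencephalic marker Galnt14 (128 against 130 CPM). Of 6 layer 4 markers, 4 had a higher mean in Deptor nuclei. Rorb stood at 336 to 451 CPM against 183 to 252 CPM and Kcnh5 at 340 to 415 CPM against 209 to 253 CPM, while the sparse Rspo1 and Tmem215 had lower means, 3.95 against 6.39 and 0.558 against 1.08 CPM. Of 6 markers shared by intratelencephalic neurons of all layers, 4 had a higher mean. Cux1, a transcription factor gene of upper-layer neurons, was lower, at 86.2 to 136 CPM against 289.5 to 318 CPM. Taken over all members, the direction of the mean thus went with the layer 5 intratelencephalic label for most markers, with Rorb raised beside them. In nuclei with at least 3 UMIs of Rorb and none of Deptor (1671 nuclei), the mean Rorb level was 960 CPM and that of Etv1 25.1 CPM. The mean of Whrn was 53.9 CPM there and 32.7 CPM in Deptor nuclei.

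**Figure D1:**
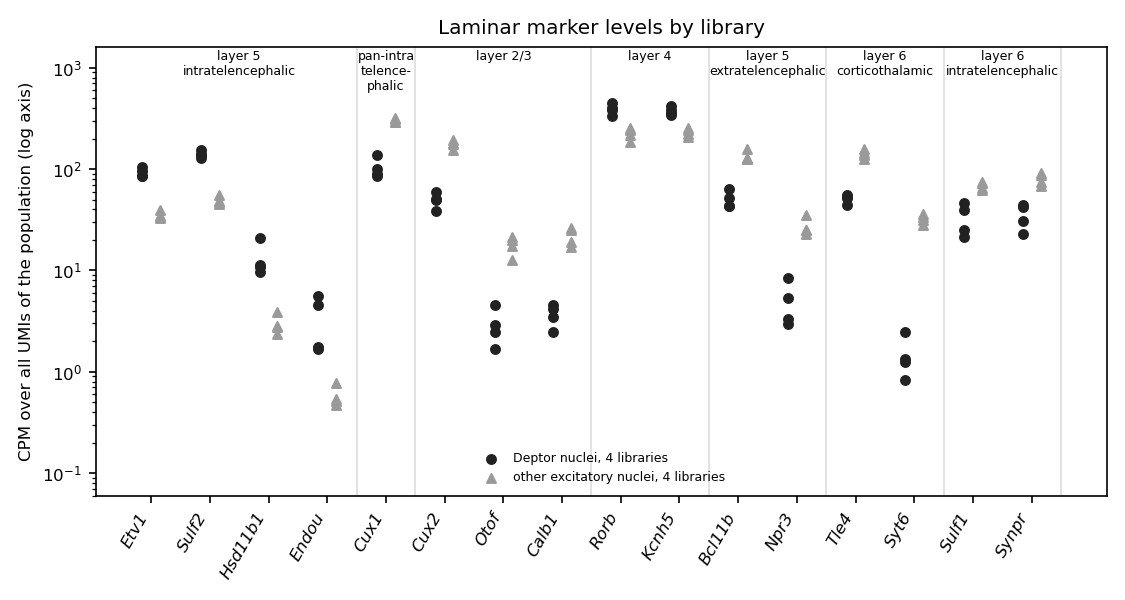
Levels of laminar marker genes outside the rule (CPM over all UMIs, log axis) in Deptor nuclei (black circles) and other excitatory nuclei (grey triangles), 1 point per library. Etv1, Sulf2, Hsd11b1, Rorb and Kcnh5 stand higher in every Deptor sum, and Cux1, Cux2, Otof, Npr3 and Syt6 lower.

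Free RNA can give UMIs in nuclei that do not express a gene, so detection of markers outside the rule was set beside that in 2930 nuclei with at least 3 UMIs of the oligodendrocyte genes Mobp and Mog together. These had a median of 1493.5 UMIs, against 10310 in Deptor nuclei. With every nucleus thinned to 1000 UMIs, which left out 295 oligodendrocyte-marker nuclei and no Deptor nucleus, Rorb was seen in 25.9% of Deptor and 4.14% of oligodendrocyte-marker nuclei, Kcnh5 in 28.6% and 4.48%, and Hsd11b1 in 1.57% and 0.0759%. Etv1 was seen in 7.57% and 6.68% and Sulf2 in 13.3% and 24.7%, so at equal depth their detection did not stand clear of that in the oligodendrocyte-marker nuclei. The comparison cannot gauge free RNA for a gene that the oligodendrocyte-marker nuclei express themselves. Whether they express Sulf2, which was seen more often in them, was not tested. Without thinning the shares were 62.0% and 5.67% for Rorb, 44.7% and 10.9% for Etv1 and 63.0% and 35.4% for Sulf2.

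Some markers of other cell types were at or near 0, and others were not. Gad1 and Gad2 were at 0 by the rule, and Dlx1 and the endothelial gene Cldn5 had no UMI in 1017 nuclei, which allows a share of up to 0.295% of nuclei with a UMI for each. In other excitatory nuclei their mean levels were 0.287 and 0.0313 CPM. The summed level of the 7 oligodendrocyte markers was 230 and 232 CPM in Control and 190 and 152 CPM in CrT-KO Deptor nuclei, lower in both CrT-KO libraries, against 179 to 226 CPM in other excitatory nuclei. Only Mbp of the 7 had a higher mean in Deptor nuclei, 124 against 99.7 CPM, and it was seen in 60.7% of them. The 6 astrocyte markers summed to 529 to 559 CPM, against 418 to 462 CPM in other excitatory nuclei. Most of this was Slc1a2, and Aqp4 and Gfap had 3 UMIs and 1 UMI in Deptor nuclei. Of these astrocyte markers, Aldh1l1, an enzyme of folate metabolism, stood at 43.5 to 53.8 CPM in Deptor nuclei and 11.1 to 16.2 CPM in other excitatory nuclei. The 6 microglial markers summed to 43.1 to 57.3 CPM against 51.3 to 61.1 CPM. Of 6 markers of striatal projection neurons, 3 had a higher mean in Deptor nuclei.

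Outside the rule genes, 8938 genes had at least 100 UMIs in the excitatory nuclei of every library, and the levels of the 2 populations were compared over them as a description. Since the members were chosen on their own counts, no test was made of these. Ptprm, a receptor tyrosine phosphatase that joins cells through its own kind, was first, at 573 and 557 CPM in Control and 518 and 593 CPM in CrT-KO Deptor nuclei against 75.5 to 97.5 CPM, or 6.08 to 7.58 times higher. The next were Aldh1l1 (3.32 to 4.67 times), Galntl6 of the glycosyltransferases that start mucin-type glycans (3.23 to 4.00 times), Prrg1 (3.15 to 3.70 times) and Dkkl1 (3.11 to 5.05 times). Further down came genes of excitability, namely the sodium-calcium-potassium exchanger Slc24a3 (2.51 to 2.89 times) and the sodium channel Scn7a (2.42 to 4.93 times). Among the 15 highest were also Shc4, Sulf2, Foxo1, Thsd7a, Ptgfrn, Etv1 and Pde1c, the last a phosphodiesterase of cyclic nucleotides, each at least 2.13 times higher in every library. Some were nearly as high in nuclei with at least 3 UMIs of Rorb and none of Deptor. Mean levels in Deptor and in those Rorb nuclei were 493.5 and 434 CPM for Thsd7a, 40.9 and 31.5 CPM for Ptgfrn and 19.6 and 14.1 CPM for Scn7a. For Ptprm they were 560 and 162 CPM, and for Galntl6 2660 and 1198 CPM.

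The lowest genes by the same measure were Col5a1, Syt6, the orexin receptor Hcrtr2, Igfbp4, Kcng2, Npr3, Calb1, the transcription factor Meis2, Otof and Sla. Meis2 was the most abundant of them, at 64.5 to 91.7 CPM in Deptor nuclei against 334 to 357 CPM in other excitatory nuclei. Col5a1 had 3 UMIs or fewer in Deptor nuclei of any library, so its ratio is poorly fixed.

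The members were not uniform. Leiden clustering of the 1017 nuclei gave 9 sub-clusters of 25 to 205 nuclei, which are numbered and not named. Sub-cluster 1 (205 nuclei) was led by the orphan nuclear receptor gene Esrrg, 2 (170) by Col8a1, Whrn and Thsd7a, 3 (185) by Rspo2 and Cdh9, 4 (106) by Tshz2 and Zfpm2, and 5 (128) by Hgf and Pld5. Sub-cluster 7 (88) was led by Abi3bp, Unc13c and Cntnap5c, with the upper-layer genes Cux1 and Cux2 among its leading genes. Sub-cluster 6 (62) stood apart by Reln, at 740 CPM inside and 18.7 CPM outside, and Ntng1, at 5340 CPM inside and 266 CPM outside. Sub-cluster 8 (48) was led by Cdh13, Nfia and Sulf1. Sulf1 is on the list of layer 6 intratelencephalic markers and Tshz2, of sub-cluster 4, on that of near-projecting neurons. The label was not checked within sub-clusters. Sub-cluster 9 (25) was led by St18, at 1044 CPM inside and 8.41 CPM outside. Each of the 9 was present in all 4 libraries, the smallest at 1.72 to 3.76% of a library's Deptor nuclei and sub-cluster 2 at 11.3 to 20.8%. All these genes served to build the sub-clusters, so they are a description.

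The share of excitatory nuclei that met the rule did not differ detectably between genotypes. It was 8.55% and 8.98% in the Control libraries (Wilson 95% intervals 7.52 to 9.71% and 7.98 to 10.1%) and 10.8% and 8.59% in the CrT-KO libraries (9.73 to 12.0% and 7.59 to 9.70%). The intervals cover counting error only. The genotypes overlapped, and the difference of 0.933 percentage points had p = 0.667 in a two-sided exact permutation test over 6 assignments, whose smallest possible p is 0.33. Without CrT-KO replicate 1 the difference was -0.175 points, and without CrT-KO replicate 2 it was 2.04 points. After thinning every nucleus to 5000 UMIs, with 3282 to 3878 shallower nuclei left out per library, the shares were 5.13% and 5.32% in Control and 6.68% and 6.34% in CrT-KO libraries (exact p = 0.33).

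Slc6a8, the targeted gene, was rare in Deptor nuclei. Its UMIs numbered 16 and 16 in the Control libraries and 6 and 6 in the CrT-KO libraries, or 6.62 and 5.65 against 1.63 and 2.58 CPM, here with normalised library sizes. The genotypes did not overlap, but the log2 fold change of -1.58 (SE 0.46) had an adjusted p of 0.252. In other excitatory nuclei, with more UMIs, the log2 fold change was -2.02 (SE 0.21, adjusted p = 0.00477), and the 2 populations were not shown to differ (adjusted p = 0.982). The remaining UMIs could not be placed within or outside the deleted exons from the counts.

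To ask which genes differed with loss of the transporter, UMIs of the Deptor nuclei were summed per library and tested with edgeR's quasi-likelihood test at an adjusted p under 0.1. Of 9463 genes tested, 40 were called (0.423%), 20 higher in CrT-KO (0.211%) and 20 lower (0.211%), and the median log2 fold change of all tested genes was -0.0018. All 40 had library values that did not overlap between genotypes, as did 3524 genes (37.2%) of all those tested. An unadjusted p under 0.05 was reached by 795 genes. DESeq2 called 33 genes, of which 19 were among the 40. It gave no adjusted p for 20 of the 40, since its filter on mean counts removed them, and without that filter it called 20 genes, all among the 40.

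Npas3, a basic helix-loop-helix transcription factor gene (chr12:53248677-54072175), stood at 95.9 and 97.4 CPM in Control and 180 and 169 CPM in CrT-KO Deptor nuclei. Both CrT-KO values were far above both Control values, with a log2 fold change of 0.85 (SE 0.11, adjusted p = 0.000574). In other excitatory nuclei the log2 fold change of Npas3 was 0.15 (SE 0.08), on a level of 172 to 201 CPM over all UMIs. Dpyd, which starts pyrimidine breakdown (chr3:118562129-119432924), went from 121 and 122 CPM to 193 and 203 CPM (0.70, SE 0.11, adjusted p = 0.0024). Its level in other excitatory nuclei was 201 to 229 CPM. Hs6st3, a sulfotransferase of heparan sulfate (chr14:119138341-119869815), rose from 2509 and 2394 CPM to 3307 and 3348 CPM (0.44, SE 0.07, adjusted p = 0.0024).

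Tmem163, a zinc transporter of vesicles (chr1:127486546-127679548), rose from 33.9 and 39.2 to 69.5 and 65.7 CPM (log2 fold change 0.89, SE 0.15, adjusted p = 0.00639). It overlaps Mgat5 on the opposite strand, and whether counting used the strand was not stated. The level of Tmem163 in other excitatory nuclei was 74.6 to 79.7 CPM. Glis3, a zinc finger transcription factor gene (chr19:28258851-28680077), had the largest rise of the 40, 2.33 (SE 0.40, adjusted p = 0.00639). That rise rests on few molecules, 6 and 6 UMIs in Control against 41 and 29 in CrT-KO Deptor nuclei. Glis3 stood at 2.48 and 2.12 CPM in Control and 11.1 and 12.4 CPM in CrT-KO Deptor nuclei. Other excitatory nuclei held more of it in both genotypes, 33.2 to 40.2 CPM. When nuclei with 1 or 2 UMIs of Il1rapl2 were admitted as well, the log2 fold change of Glis3 was 0.33, and with at least 2 UMIs of Deptor required it was 2.14 without passing the threshold. Vwa3a (1.22, SE 0.26, adjusted p = 0.0476), the tyrosine phosphatase gene Ptpn13 (0.84, SE 0.20, adjusted p = 0.0923) and the neuronal adaptor gene Shc3 (0.52, SE 0.12, adjusted p = 0.0764) rose as well.

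The other large rises were those of Thsd7a, Ntng1, Reln and Cntnap5c, genes that also differ between sub-clusters of the Deptor nuclei. Thsd7a, a membrane protein with thrombospondin repeats (chr6:12311610-12749410), stood at 402 and 423 CPM in Control and 587 and 579 CPM in CrT-KO (log2 fold change 0.50, SE 0.08, adjusted p = 0.00639). Ntng1, the membrane-anchored netrin-G1 (chr3:109780040-110144011), stood at 374 and 400 against 729 and 527 CPM (0.70, SE 0.11, adjusted p = 0.00432). Without CrT-KO replicate 1 the log2 fold change of Ntng1 was 0.45. Reln, the secreted reelin (chr5:21884454-22344702), stood at 28.9 and 50.5 against 66.5 and 73.4 CPM (0.79, SE 0.18, adjusted p = 0.0853), and was 0.47 without Control replicate 1, where the call was lost, and 1.27 without Control replicate 2. The call of Reln was also lost without marked doublets (0.60, adjusted p = 0.214) and without sub-cluster 6 (0.80, adjusted p = 0.591). Cntnap5c, of the contactin-associated protein family, stood at 66.6 and 74.8 against 132 and 105 CPM (0.76, SE 0.13, adjusted p = 0.00956). Its log2 fold change was 0.39 without sub-cluster 6, where the call was lost (adjusted p = 0.351). It rose in other excitatory nuclei too (0.50, SE 0.07, adjusted p = 0.0256), and the populations were not shown to differ (adjusted p = 0.633).

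**Figure D2:**
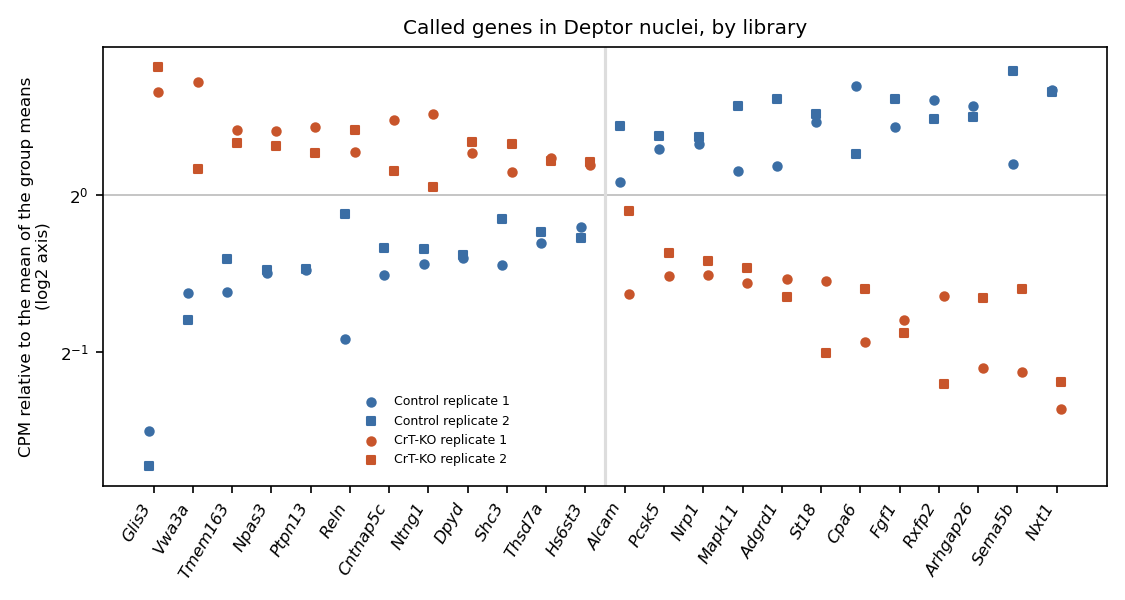
CPM of the 12 called genes with the largest rise and the 12 with the largest fall in Deptor nuclei, divided by the mean of both genotype means (log2 axis), with Control libraries in blue and CrT-KO libraries in red (circles replicate 1, squares replicate 2). The colours do not overlap for any gene, as the choice of genes requires, and Glis3 and Nxt1 are the widest apart.

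A pair of overlapping genes fell in both populations. Arhgap26, a GTPase-activating protein gene (here the entry ENSMUSG00000118193, since the symbol appears on more than 1 entry), stood at 220 and 209 CPM in Control and 68.7 and 94.0 CPM in CrT-KO Deptor nuclei (log2 fold change -1.42, SE 0.13, adjusted p = 4.23e-06). Fgf1, a fibroblast growth factor gene within it on the opposite strand, stood at 49.2 and 55.8 against 20.9 and 19.7 CPM (-1.36, SE 0.18, adjusted p = 0.000574). Their reads may not be told apart. In other excitatory nuclei they fell by 1.23 (SE 0.11) for Arhgap26 and by 1.25 (SE 0.11) for Fgf1 on the log2 scale, both at an adjusted p of 0.00162, and the populations were not shown to differ (adjusted p = 0.902 and 0.991).

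Among the other falls were those of Pcsk5, Pcsk2, Cpa6, Nrp1 and Sema5b. The proprotein convertase gene Pcsk5 (chr19:17432319-17837632) stood at 99.2 and 105 CPM in Control and 56.5 and 62.7 CPM in CrT-KO Deptor nuclei (log2 fold change -0.79, SE 0.13, adjusted p = 0.00487). Pcsk2, the convertase of many neuropeptide precursors (chr2:143546156-143816285), stood at 1440 and 1374 against 1101 and 1025 CPM (-0.40, SE 0.08, adjusted p = 0.0141). Cpa6, a secreted carboxypeptidase (chr1:10324720-10719945), stood at 59.1 and 43.8 against 19.0 and 24.0 CPM (-1.27, SE 0.19, adjusted p = 0.0024). In all 3 both CrT-KO libraries were below both Control libraries. Nrp1, the neuropilin that binds class 3 semaphorins (chr8:128358604-128503363), stood at 74.8 and 77.3 against 41.8 and 44.6 CPM (-0.82, SE 0.14, adjusted p = 0.0064). Sema5b, a semaphorin (chr16:35541145-35664732), stood at 15.7 and 23.6 against 6.25 and 9.01 CPM (-1.42, SE 0.30, adjusted p = 0.0396).

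St18, a transcription factor gene of oligodendrocytes (chr1:6487231-6860940), was called as lower, at 48.0 and 49.8 CPM in Control and 23.6 and 17.2 CPM in CrT-KO (log2 fold change -1.22, SE 0.18, adjusted p = 0.0024). Its UMIs lay mostly in sub-cluster 9, whose leading gene it was. The log2 fold change was 0.29 without marked doublets, 0.82 without nuclei that held at least 3 UMIs of the oligodendrocyte genes Mbp and Mobp together, and 0.30 without sub-cluster 9, none of them past the threshold. Without sub-cluster 9 the number of called genes was 58, and without the nuclei rich in Mbp and Mobp it was 37.

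The largest fall of the 40 was that of Nxt1, a cofactor of messenger RNA export (-1.94, SE 0.43, adjusted p = 0.0661, on 19 and 22 against 7 and 5 UMIs). The other large falls were those of Rxfp2, a receptor of the relaxin family (-1.39, SE 0.27, adjusted p = 0.0172), the adhesion G protein-coupled receptor gene Adgrd1 (-1.01, SE 0.24, adjusted p = 0.0936), Mapk11, which encodes a p38 kinase (-0.91, SE 0.20, adjusted p = 0.0554), and the adhesion molecule gene Alcam (-0.64, SE 0.14, adjusted p = 0.0493). Alcam lost its call without CrT-KO replicate 1, at -0.38. The remaining 16 called genes had smaller changes, from -0.60 to 0.43. Dgkb, a diacylglycerol kinase gene (chr12:37817726-38634239), fell from 967 and 1058 to 618 and 723 CPM in Deptor nuclei (-0.60, SE 0.09, adjusted p = 0.0024), and fell by 0.48 (SE 0.07) in other excitatory nuclei (adjusted p = 0.0449). Car10, a carbonic anhydrase relative that binds neurexins (chr11:93098028-93601749), fell from 2364 and 2339 to 1829 and 1804 CPM (-0.37, SE 0.07, adjusted p = 0.0131). Sorcs3, a sorting receptor gene (chr19:48206025-48805505), fell from 646 and 670 to 454 and 497 CPM (-0.47, SE 0.08, adjusted p = 0.0107).

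Nrg3, a ligand of the receptor ErbB4, rose from 7768 and 8472 to 9676 and 10240 CPM (0.29, SE 0.06, adjusted p = 0.0534), and Cntn5, a contactin, from 2710 and 2918 to 3624 and 3512 CPM (0.34, SE 0.07, adjusted p = 0.0258). Tafa2, a secreted brain protein, rose from 1136 and 1038 to 1556 and 1378 CPM (0.43, SE 0.08, adjusted p = 0.0136). Galntl6, also among the genes highest in level against other excitatory nuclei, went from 2137 and 2590 to 2978 and 3022 CPM (0.34, SE 0.08, adjusted p = 0.0832). It overlaps BC030500 on the opposite strand. Maml3, a coactivator of Notch, fell from 277 and 323 to 184 and 238 CPM (-0.52, SE 0.12, adjusted p = 0.0661).

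No library alone carried the whole set, but many single calls leaned on 1 animal. Of the 40 genes, 20 were called when each library was left out in turn. Without Control replicate 1, 60 genes were called and 13 of the 40 were lost, namely Nxt1, Reln, Kcnip4, Ptpn13, Gabrg3, Galntl6, Nrg3, Cntn5, Sgcd, Chrm3, Shc3, Epha6 and Kcnn2. Without Control replicate 2, 89 were called and Nxt1, Maml3, Ptpn13, Adgrd1, Gabrg3, Mapk11 and Sema5b were lost. Without CrT-KO replicate 1, 82 were called and Nxt1, Maml3, Ptpn13, Vwa3a, Mapk11, Sema5b, Alcam, Cntnap5c and Kcnn2 were lost. Without CrT-KO replicate 2, 148 were called and Shc3 was lost. Of the values that moved by over 1.5 times, those not given with their genes were Chrm3 and Galntl6 without Control replicate 1 (-0.25 and 0.22) and Maml3 without CrT-KO replicate 1 (-0.33). The genes Pcsk2, Pcsk5, Dpyd, Ptprd, Thsd7a, Nrp1, Hs6st3, Car10, Dgkb, Npas3, Arhgap26, Fgf1 and Sorcs3 were called in every setting that gave them an adjusted p.

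The sub-clusters differ in many of these genes, so the fold changes were also computed with each sub-cluster weighted alike in every library. This value is not independent, since the sub-clusters were built from the same counts. All 40 genes kept their sign and 24 stayed within 1 SE of the original value. Below 50% of the change was left for 5 genes, all of them higher in CrT-KO. Thsd7a went from 0.50 to 0.09, Ntng1 from 0.70 to 0.31, Tafa2 from 0.43 to 0.17, Cntn5 from 0.34 to 0.14 and Sgcd from 0.33 to 0.15. A further 5 moved by over 1.5 times, namely Reln (0.46), Galntl6 (0.19), Ptprd (0.19), Hs6st3 (0.27) and Epha6 (0.26). Thsd7a was a leading gene of sub-cluster 2 and Ntng1 of sub-cluster 6. By contrast Glis3 (2.32), Vwa3a (1.23), Arhgap26 (-1.44), Fgf1 (-1.39), Car10 (-0.36) and Pcsk2 (-0.39) were near their original values. The fixed makeup does not vary the rule, on whose Il1rapl2 and Deptor conditions the call of Glis3 depended, as given above. The part of sub-cluster makeup in the calls was not tested.

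**Figure D3:**
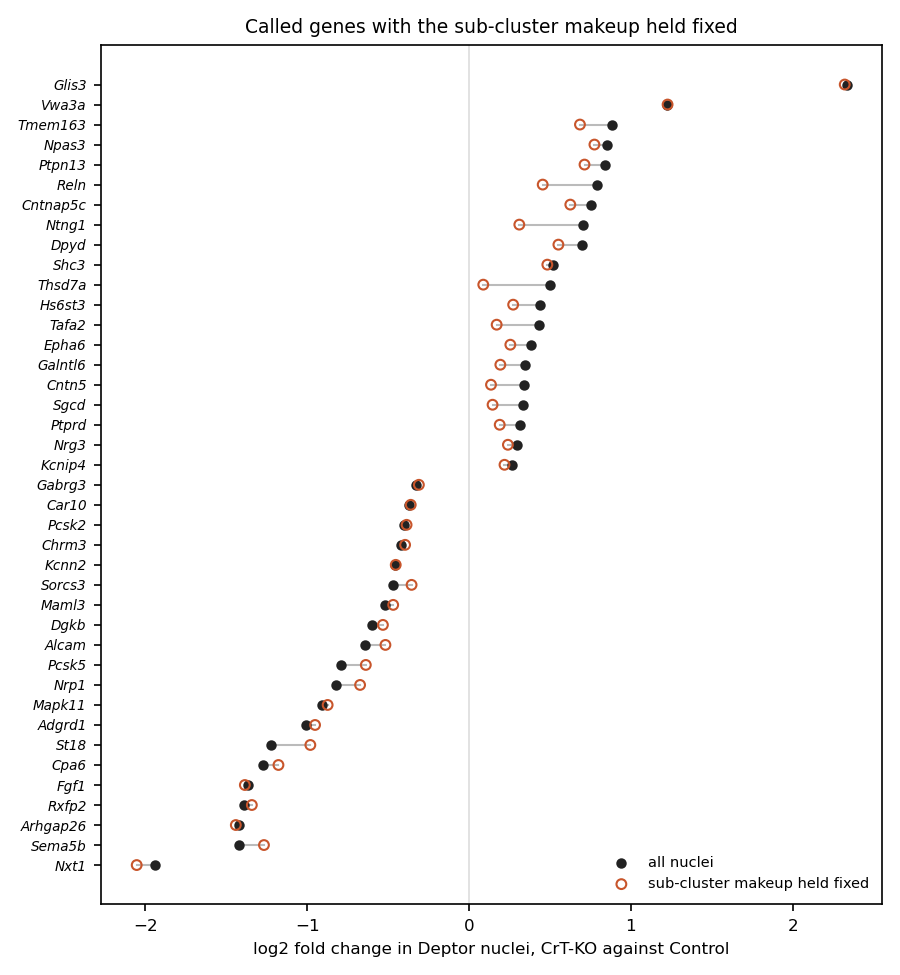
Log2 fold change between genotypes of the 40 called genes in all Deptor nuclei (filled) and with the sub-cluster makeup held fixed (open), joined by a line for each gene. The points of Thsd7a and Ntng1 are far apart, and those of Glis3, Arhgap26 and Car10 nearly coincide.

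The genotype difference in Deptor nuclei was then compared with that in other excitatory nuclei of the same libraries by an interaction term. Of 12989 genes tested, 62 were called (0.477%), 32 with a higher (0.246%) and 30 with a lower (0.231%) log2 fold change in Deptor nuclei, and 856 had an unadjusted p under 0.05. Of the 62, 19 were also among the 40 called genes, which is 47.5% of the 40 and 30.6% of the 62. Of the 62, Deptor and Il1rapl2 belong to the rule and are not read as results. DESeq2 called 13 genes, and 4 without its filter on mean counts.

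The call of Glis3 between genotypes depended on the Il1rapl2 and Deptor conditions of the rule, as given above. Glis3 had the largest higher value, 2.36 (SE 0.39, adjusted p = 0.000239), with a log2 fold change of -0.03 in other excitatory nuclei. It was followed by the homeobox gene Barx2 (1.35, SE 0.35, adjusted p = 0.079), the collagen gene Col23a1 (1.15, SE 0.25, adjusted p = 0.00981), Napepld, an enzyme of anandamide synthesis (1.06, SE 0.27, adjusted p = 0.0571), and Gm11639 (0.94, SE 0.21, adjusted p = 0.0176). In these 4 the log2 fold change was 0.57 to 1.03 in Deptor nuclei and -0.37 to -0.17 in other excitatory nuclei, and neither was called alone. The largest lower values were those of Nxt1 (-1.80, SE 0.48, adjusted p = 0.0944), Gab1, the docking protein of MET (-1.34, SE 0.34, adjusted p = 0.0561), Spag16 (-1.32, SE 0.29, adjusted p = 0.0122), Sema5b (-1.26, SE 0.26, adjusted p = 0.00759) and St18 (-1.07, SE 0.18, adjusted p = 0.000419). The value of St18 was 0.57 without nuclei rich in Mbp and Mobp, and that of Spag16 was 0.35 without sub-clusters 6, 8 and 9, neither past the threshold.

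**Figure D4:**
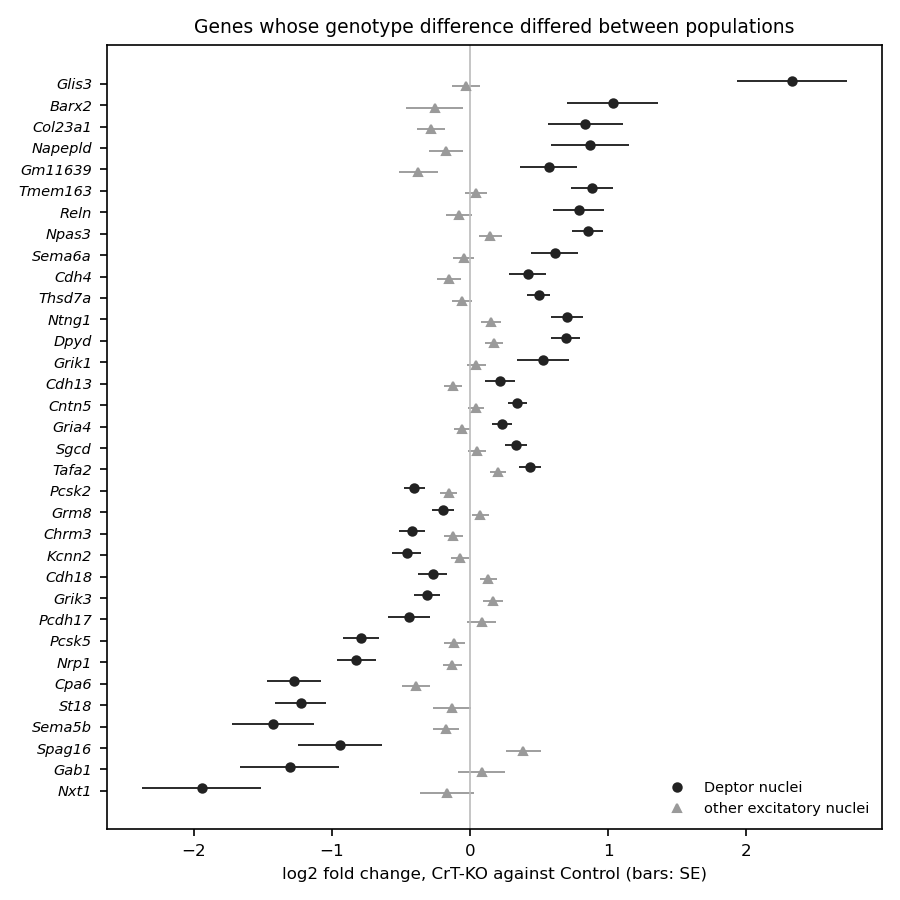
Log2 fold change between genotypes (with SE) in Deptor nuclei (black circles) and in other excitatory nuclei (grey triangles) for the named genes whose genotype difference differed between the populations, ordered by that difference. Glis3 lies farthest to the right and Nxt1 farthest to the left, and the grey points lie between -0.39 (Cpa6) and 0.39 (Spag16).

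The lists of creatine handling, mTOR and energy supply held 0 called of 99 tested genes by edgeR, beside 0.423% of all genes, a count near that share. DESeq2 called 0 of them too, and 10 had an unadjusted p under 0.05. Genes of the rule are left out of these and the following list counts. Of 5 tested genes for creatine transport, synthesis and kinases, none was called, and the cytosolic kinase gene Ckb stood at 30.2 and 27.5 CPM in Control and 22.3 and 18.5 CPM in CrT-KO (log2 fold change -0.48, SE 0.20, adjusted p = 0.518). Gatm, which catalyses the first step of creatine synthesis, stood at 9.51 and 6.35 against 3.26 and 3.00 CPM (-1.30, SE 0.41, adjusted p = 0.288). Of 23 tested genes of the mTOR complexes and their regulators, none was called, and the list median was 0.02 beside -0.0018 over all genes. Rptor, a subunit of the first complex, was at 154 and 156 against 160 and 143 CPM, with overlap between genotypes. Of 20 mTOR targets, 14 genes of AMP kinase and adenylate kinase, 23 of glycolysis, glucose and lactate, and 14 of ion pumps, none was called. In these lists the medians were 0.0021, -0.0021, -0.013 and -0.090. The adenylate kinase gene Ak5 stood at 302 and 349 against 388 and 439 CPM (0.34, SE 0.10, adjusted p = 0.245).

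Lists tied to protein folding and activity also gave no call, with medians below that of all genes. The 19 tested genes of endoplasmic reticulum chaperones had a median of -0.23, with 16 negative values, the 16 cytosolic heat shock chaperones had -0.21, with 12 negative, and the 15 immediate-early genes -0.31, with 10 negative. All 9 tested mitochondrially encoded genes had negative values, from -0.50 to -0.12. Of these, mt-Co1 stood at 36.4 and 42.4 CPM in Control and 35.6 and 37.3 CPM in CrT-KO, and mt-Co3 at 35.1 and 54.7 against 43.5 and 32.2 CPM. In both the genotypes overlapped and Control replicate 2 was highest. The median share of mitochondrial UMIs per nucleus was 0.0160 and 0.0223% in Control and 0.0170 and 0.0152% in CrT-KO Deptor nuclei. Mitochondrial RNA in sorted nuclei comes from outside the nucleus. Of 23 tested genes of HGF, MET and RAC signalling none was called, and the exchange factor gene Kalrn stood at 2395 and 2349 against 2302 and 2448 CPM.

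Synaptic adhesion held 2 called genes of 47 tested, both higher, with a median of 0.02, where 0.211% of all genes were called as higher. Besides Ntng1 this was Ptprd, a presynaptic receptor phosphatase that also partners members of the Il1rapl family (chr4:75941238-78211961), at 18620 and 20043 CPM in Control and 24274 and 23800 CPM in CrT-KO Deptor nuclei (log2 fold change 0.31, SE 0.06, adjusted p = 0.0108). The abundant neuroligin gene Nlgn1 did not pass, with 0.10 (SE 0.07, adjusted p = 0.755). Of 39 axon guidance genes, Epha6, an ephrin receptor gene, rose from 1016 and 1070 to 1424 and 1300 CPM (0.39, SE 0.08, adjusted p = 0.0272), and Nrp1 and Sema5b fell. Of all genes tested, 0.211% were called as higher and 0.211% as lower. The slit receptor gene Robo2 had 0.27 (SE 0.07, adjusted p = 0.212). None of 21 cadherin genes was called, while 4 of 24 tested differed from other excitatory nuclei (0.477% of all genes), Cdh4 and Cdh13 with a higher and Cdh18 and Pcdh17 with a lower value.

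The 5 lists of ion channel and receptor genes held 4 called of 125 tested genes (3.2%, beside 0.423% of all genes). Each of the 4 calls was lost at an adjusted p under 0.05 and by DESeq2 without its filter on mean counts. With that filter DESeq2 called 5 of the 125. Of 42 potassium and HCN channel genes, Kcnip4, an accessory subunit of Kv4 channels, rose from 10079 and 10616 to 12202 and 12634 CPM (0.26, SE 0.06, adjusted p = 0.07), and Kcnn2, a calcium-activated potassium channel, fell from 232 and 212 to 159 and 164 CPM (-0.46, SE 0.10, adjusted p = 0.0661). Kcnip4 overlaps 5730480H06Rik on the opposite strand. None of 28 sodium and calcium channel genes was called. Of 17 GABA receptor and chloride transport genes, the subunit gene Gabrg3 fell from 1259 and 1259 to 993 and 1014 CPM (-0.33, SE 0.07, adjusted p = 0.0716). Of 13 monoamine and acetylcholine receptor genes, the muscarinic receptor gene Chrm3 fell from 977 and 786 to 646 and 670 CPM (-0.42, SE 0.09, adjusted p = 0.0628). None of 25 glutamate receptor genes was called, with Grin2a at 2177 and 2285 against 2147 and 2492 CPM. By the population by genotype term 4 of 26 tested differed from other excitatory nuclei, beside 0.477% of all genes. Gria4 (0.30, SE 0.05, adjusted p = 0.00108) and Grik1 had a higher value, and Grik3 (-0.47, SE 0.09, adjusted p = 0.000865) and Grm8 a lower one.

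**Figure D5:**
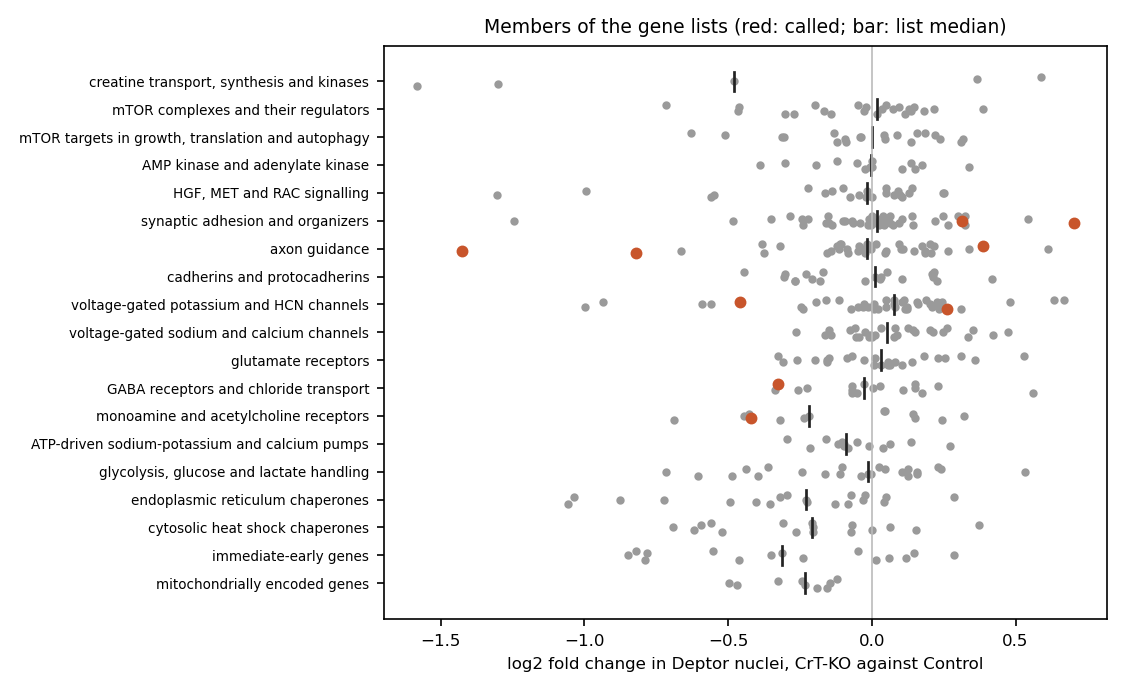
Log2 fold change between genotypes in Deptor nuclei of the tested members of 19 gene lists, genes of the rule left out, with called genes in red and a bar at each list's median. The called genes lie in the lists of synaptic adhesion, axon guidance, potassium channels, GABA receptors and acetylcholine receptors, and the metabolic and chaperone lists hold grey points alone.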

How the data were processed

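The authors sequenced nuclei with a droplet kit and made the deposited counts with Cell Ranger 3.1.0 on the pre-mRNA reference of GRCm38 (mm10), so intronic reads were counted. The deposited matrices hold whole UMI counts per gene and nucleus for called nuclei, with no scaling, no cell type annotation and no stated use of strand. Coordinates come from GENCODE vM21 of the same build (99.5% of 21933 genes found by identifier).

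The members and gene lists were chosen with earlier results of these data known. UMIs were summed per library, since nuclei are not replicates, and tested with edgeR 4.0.16 (quasi-likelihood, TMM, filterByExpr at 10 UMIs, Benjamini-Hochberg over all genes tested, threshold 0.1), first within Deptor nuclei and then as a population by genotype term with the library as a block. The study's own test ran over nuclei with the same threshold. DESeq2 1.42.0 was an alternative. CPM in the genotype comparison uses TMM library sizes, and all other levels use all UMIs of the population. Library totals limit the precision, and p-values cover the spread between 2 animals per genotype. Scrublet and Leiden clustering (2000 variable genes, 15 components, 15 neighbours, resolution 0.5) ran in scanpy 1.11.5. The tests were checked on simulated counts with the same spread for all genes. The genotype test recovered 77 of 98 genes changed 2 times and 39 of 96 changed 1.5 times, and called 11 unchanged genes. The population term recovered 74 of 100 and 26 of 100, and called 12 unchanged genes. A gene that was not called may thus still have a moderate change.

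Named genes were the rule genes and Slc6a8, the 12 largest rises and 12 largest falls among called genes without overlap between genotypes, up to 5 each way of the population term, and of each list the called members and examples among the 4 most abundant. Ckb, Gatm, Ak5, Kalrn, Nlgn1, Robo2, Grin2a, Rptor and mt-Co1 were such examples. Dgkb, Car10, Sorcs3, Pcsk2 and the rest of the 40 were named in addition. Alternatives changed the rule, the doublets, the filter, the scaling, the tool and the libraries used. A few genes that these rules name are not reported here, nor is a setting on glial UMIs that rests on 1 of them. Nuclei rich in Mbp and Mobp were left out in its place, a pair chosen after seeing the data.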

Additional observations from a re-analysis of the deposited data

Results flagged for a closer look

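The genotype difference of 34 named genes differed between Deptor nuclei and other excitatory nuclei by the population by genotype term (adjusted p under 0.1, edgeR). Values are log2 fold change in Deptor nuclei minus that in other excitatory nuclei. Higher values were found for the transcription factor genes Glis3 (2.36), Barx2 (1.35) and Npas3 (0.726), for Col23a1 (1.15), Napepld (1.06), Gm11639 (0.939), Tmem163 (0.864), Reln (0.858), Sema6a (0.674), Cdh4 (0.573), Thsd7a (0.569), Ntng1 (0.549) and Dpyd (0.527), for the glutamate receptor genes Grik1 (0.506) and Gria4 (0.301), and for Cdh13 (0.352), Cntn5 (0.308), Sgcd (0.296) and Tafa2 (0.242).

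Lower values were found for Nxt1 (-1.80), Gab1 (-1.34), Spag16 (-1.32), Sema5b (-1.26), St18 (-1.07), Cpa6 (-0.884), Nrp1 (-0.687), Pcsk5 (-0.676), Pcdh17 (-0.490), Grik3 (-0.474), Cdh18 (-0.405), Kcnn2 (-0.373), Chrm3 (-0.278), Grm8 (-0.260) and Pcsk2 (-0.238). Of all 62 genes so called, 34 were called again without Control replicate 1, 30 without Control replicate 2, 21 without CrT-KO replicate 1 and 46 without CrT-KO replicate 2.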

How the results depend on the processing

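The number of genes called between genotypes (40) became 26 at an adjusted p under 0.05, 24 with Foxp2 at 0 UMIs, 131 with no filter on low counts and 20 with DESeq2 without its filter on mean counts, the last chosen after seeing the data. It ranged from 60 to 148 when a library was left out. The number of genes that differed from other excitatory nuclei (62) became 37 with at least 2 UMIs of Deptor, 21 with Foxp2 at 0 UMIs, 13 with DESeq2 and 4 with DESeq2 without its filter, and ranged from 33 to 85 when a library was left out. The causes were not tested. The difference in share ranged from -0.175 to 2.04 percentage points without a library. The sources used here do not say that equal replicate numbers mark a shared litter or batch, and the deviations of same-numbered libraries had a correlation of 0.111 across 9463 genes. With the number as a replicate block, 243 genes were called, all of the 40 among them.

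St18 changed sign without doublets (0.29), without nuclei rich in Mbp and Mobp (0.82), without sub-cluster 9 (0.30) and without sub-clusters 6, 8 and 9 (0.69). Its difference from other excitatory nuclei changed sign in the same way (0.47, 0.57 and 0.85 without doublets, without nuclei rich in Mbp and Mobp, and without sub-clusters 6, 8 and 9), as did that of Spag16 (0.35 without sub-clusters 6, 8 and 9). The other 39 called genes kept their direction in every setting run. The alternatives that leave out sub-clusters or nuclei rich in Mbp and Mobp and the fixed makeup were chosen after seeing the data. With 2 animals per genotype and 213 to 317 Deptor nuclei per library, the precision for genes of few UMIs was low: the SE of Slc6a8 was 0.46 and that of Ptprd 0.06 on the log2 scale.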
